A study of Mus musculus with 2 samples.

Results

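The regions described here are m6A peaks in mouse uterus that lie inside 2 or more protein-coding genes at once. A peak was taken when its summit, the base of strongest enrichment, fell inside the mm10 RefSeq spans of at least 2 protein-coding genes on an autosome. The clustered protocadherin locus of chromosome 18 was left out. This gave 875 of the 38366 peaks in the list, or 2.28%, in 586 different sets of genes that together hold 1132 genes. A further 102 shared summits lay in the protocadherin locus and 25 on the sex chromosomes. The set against which they are described is the 31085 autosomal peaks in exactly 1 protein-coding gene.

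N6-methyladenosine (m6A) is an internal mark of mRNA that is written by a nuclear methyltransferase complex, read by YTH-domain and other proteins, and known for its place near stop codons and in the long last exons of transcripts. In methylated RNA immunoprecipitation sequencing (MeRIP-seq), an anti-m6A antibody pulls down marked pieces of RNA, whose reads are set against those of untouched input RNA. Mammalian genes often overlap: neighbours on opposite strands can run into each other at their ends, and small genes can sit inside the introns of larger ones. A peak in such a stretch can belong to either transcript. Strand, where it is kept, can tell them apart only if the genes lie on opposite strands. Below, a gene holds a peak when the summit lies in its span, and which transcript carried a shared peak was not determined.

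The m6A library was made with an anti-m6A antibody from whole uterus of C57BL/6 mice, with GD4 and GD8 tissue mixed equally, and the input library was labelled as whole uterus of C57BL/6 mice without antibody. Both came from TRIzol-extracted total RNA. There was 1 library of each, so no test between groups was possible and all differences given here are descriptions of this peak list. The peak names carry only D8, while the label names both GD4 and GD8, and whether the input RNA was the same pool is not stated. The list holds no expression level, so the tissue label could not be checked against transcript levels. It holds no strand either, although the library kit keeps strand. In whole tissue, a change in the number of cells of a type and in RNA per cell cannot be told apart.

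Sequence is shown first for gene starts that carry a shared peak, because there the peak lies where 2 transcription units meet or overlap. Of the 4 windows, 3 hold a peak above 20-fold, and Rara is shown as a gene of the uterine list, with a weaker one. The windows are RefSeq promoters of GRCm38.p6, the assembly of mm10. Each runs from 250 bases before to 50 bases after an annotated start, 5′ to 3′ on the gene's own strand, and a gene's span can reach beyond that start. Capitals mark GGACT, a common form of the m6A consensus, or its reverse complement AGTCC. The Uros window (chr7:133709246-133709545, minus strand) holds the most enriched shared peak, with the summit 106 bases before this start, at base 145 of the window. The Cenpk window (chr13:104228716-104229015, plus strand) holds a summit 217 bases before the start, at base 34. The Ptgfrn window (chr3:101110117-101110416, minus strand) holds one 191 bases before the start, at base 60. The Rara window (chr11:98937468-98937767, plus strand) holds one 38 bases after the start, at base 289.
Uros: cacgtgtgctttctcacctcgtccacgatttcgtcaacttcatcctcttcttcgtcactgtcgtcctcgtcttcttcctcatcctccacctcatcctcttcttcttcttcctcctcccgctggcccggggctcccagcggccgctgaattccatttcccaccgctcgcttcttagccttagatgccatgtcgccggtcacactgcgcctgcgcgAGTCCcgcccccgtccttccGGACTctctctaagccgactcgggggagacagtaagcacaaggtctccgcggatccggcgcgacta
Cenpk: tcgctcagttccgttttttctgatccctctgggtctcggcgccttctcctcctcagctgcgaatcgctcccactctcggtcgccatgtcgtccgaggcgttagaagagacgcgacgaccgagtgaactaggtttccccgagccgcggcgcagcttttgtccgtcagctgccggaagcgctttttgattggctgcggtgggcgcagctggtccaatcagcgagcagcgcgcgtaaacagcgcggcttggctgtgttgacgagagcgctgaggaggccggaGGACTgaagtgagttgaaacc
Ptgfrn: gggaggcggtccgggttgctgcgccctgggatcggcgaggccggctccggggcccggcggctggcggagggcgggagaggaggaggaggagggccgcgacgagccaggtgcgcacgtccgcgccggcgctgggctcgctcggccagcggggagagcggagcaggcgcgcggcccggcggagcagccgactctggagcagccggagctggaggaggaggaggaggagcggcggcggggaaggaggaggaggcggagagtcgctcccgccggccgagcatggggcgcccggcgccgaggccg
Rara: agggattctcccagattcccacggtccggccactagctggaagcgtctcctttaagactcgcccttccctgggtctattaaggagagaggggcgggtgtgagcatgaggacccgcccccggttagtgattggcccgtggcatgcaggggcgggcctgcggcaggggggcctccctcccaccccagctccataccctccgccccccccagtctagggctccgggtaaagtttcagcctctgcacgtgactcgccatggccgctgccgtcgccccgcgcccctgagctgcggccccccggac
GGACT occurred once on each strand in the Uros window and once in the Cenpk window, and not in the Ptgfrn or Rara window. In all, 24 windows held a shared summit of their own gene (20 peaks), and 12 of them held GGACT on either strand. Over all 32851 promoter windows the share was 45.5%. A match describes the letters of the window and is not a mapped site.

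Shared peaks were slightly less enriched than peaks in 1 gene, and they rested on more input. Fold enrichment, as the authors' peak caller gave it, divides the pileup of immunoprecipitated (IP) fragments by the local input background. It had a median of 5.72 in the 875 shared peaks (quartiles 4.24 and 7.79) and 6.12 in peaks of exactly 1 gene (quartiles 4.56 and 8.34). The range over shared peaks was 1.85 to 42.95. At least 10-fold enrichment was reached by 108 shared peaks, or 12.3% (exact Clopper-Pearson 95% interval 10.2 to 14.7), against 14.8% over the whole list. This interval and those on other shares of peaks below treat peaks as independent. Peaks of the same gene set are not, so the intervals do not decide whether such shares differ. Median coverage was 34 IP fragments against a background of 4.94 in shared peaks, and 32 against 3.95 in peaks of 1 gene. Shared peaks had a median width of 420 bases, against 340 bases in 1 gene. The background was at its genome-wide level of 0.462 at 25 shared peaks (2.86%) and at 4.21% of peaks in 1 gene.

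Peaks were more frequent where genes overlap than where 1 gene stands alone. With the shared sequence of the protocadherin locus left out, sequence held by 2 or more genes made up 10.2 Mb. This was 1.04% of the remaining autosomal protein-coding gene sequence, and it held 2.74% of the peaks there. That is 85.7 summits per Mb in overlapping sequence and 32.0 per Mb in sequence of 1 gene. Much of this went with gene ends. Of overlapping sequence 21.1% lay within 1000 bases of an end of a gene that holds it, against 3.74% of sequence in 1 gene. Of the shared peaks 519 (59.3%, interval 56.0 to 62.6) had their summit this close to an end, against 24.9% of peaks in 1 gene.

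Within 1000 bases of any gene end there were 241 summits per Mb (exact Poisson 95% interval 221 to 263) in overlapping sequence and 214 per Mb (209 to 218) in sequence of 1 gene, and these intervals did not overlap. The ends were then told apart where strand was known. Near 3′ ends there were 281 summits per Mb (247 to 318) in overlapping sequence and 252 per Mb (244 to 260) in sequence of 1 gene. Near 5′ ends there were 179 per Mb (149 to 213) in overlapping sequence and 166 per Mb (159 to 172) in sequence of 1 gene. For these strand-known stretches the intervals overlapped at both kinds of end. Farther from every end the values were 42.9 per Mb (37.7 to 48.7) in overlapping sequence and 25.5 per Mb (25.1 to 25.8) in sequence of 1 gene, and these did not overlap. The intervals cover counting error only and treat neighbouring peaks as independent. All these densities are per base of gene span, introns included. Overlapping sequence and sequence of 1 gene were not matched for gene length or exon content. Strand, needed to tell the ends apart, was known for 80.1% of autosomal protein-coding genes and for all genes of 595 shared peaks.

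**Figure D1:**
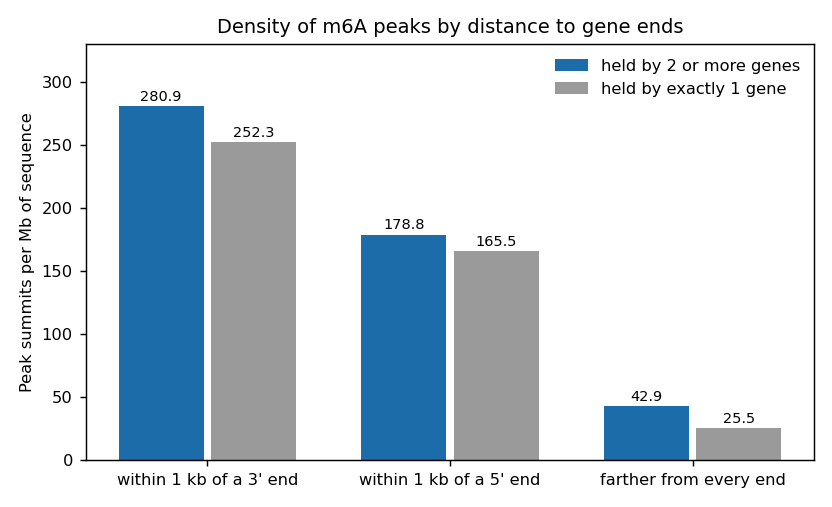
Peak summits per Mb of autosomal sequence where strand is known, within 1 kb of a 3′ end, within 1 kb of a 5′ end and farther from every end; blue bars are sequence held by 2 or more protein-coding genes and grey bars sequence held by exactly 1. Both kinds are densest near 3′ ends, at 281 and 252 per Mb, and the gap is widest in proportion away from the ends, at 42.9 and 25.5 per Mb.

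The 875 peaks fell into arrangements that differ in where the genes meet. Most summits (863) lay in exactly 2 genes, and 12 lay in 3 or more. Among 586 peaks in 2 genes of known strand and unequal span, 219 were tail-to-tail, where opposite-strand genes overlap at their 3′ ends. Another 69 were head-to-head, where they overlap at their 5′ ends, and 30 lay where same-strand genes overlap in part. In 156 peaks 1 gene lay inside another on the opposite strand, and in 112 on the same strand. For 270 peaks strand was not in the table for at least 1 gene, and they were only split into 147 partial and 123 nested overlaps. The remaining 7 lay in pairs with equal spans.

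Tail-to-tail peaks had the lowest median enrichment and the highest median background of the 9 classes. Their median was 4.96-fold with 44 IP fragments over 8.03 of background, and 15 of 219 (6.85%, interval 3.88 to 11.0) reached 10-fold. Head-to-head peaks had a median of 6.16-fold with 17 fragments over 1.85, and 13 of 69 (18.8%, interval 10.4 to 30.1) reached 10-fold. Nested pairs stood at 6.16-fold on opposite strands and 6.51-fold on the same strand, and partial same-strand overlaps at 6.30-fold. Where strand was not in the table, the medians were 5.64-fold in nested and 5.39-fold in partial overlaps. Peaks in 3 or more genes had a median of 6.58-fold and none of the 12 reached 10-fold.

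**Figure D2:**
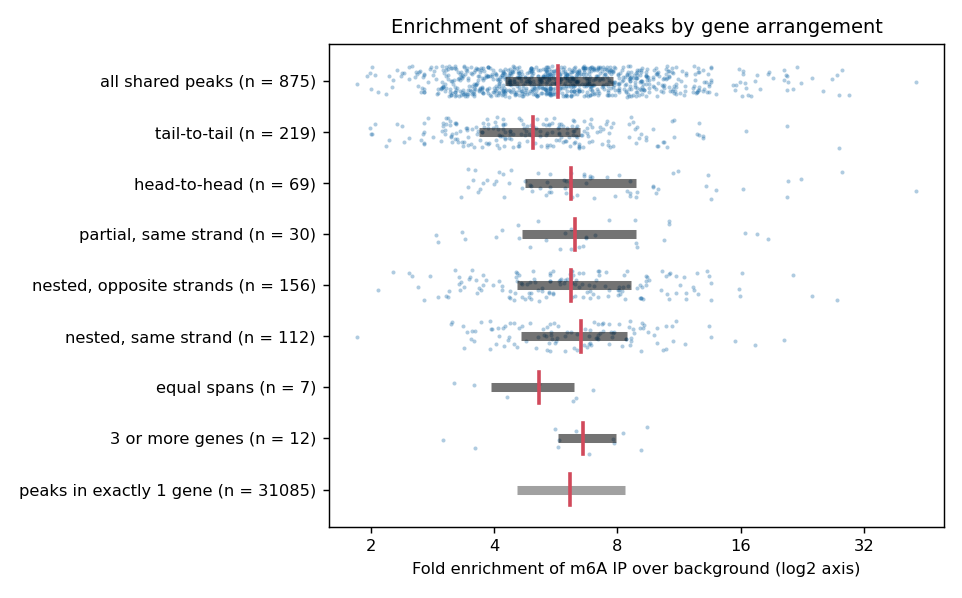
Fold enrichment on a log2 axis for each shared peak (blue points), by arrangement of the genes; dark bars span the quartiles and red lines mark medians, and the lowest row gives only quartiles and median of peaks in exactly 1 gene. The tail-to-tail median of 4.96 lies left of the 6.12 of peaks in 1 gene, while the head-to-head median and those of the nested classes of known strand lie at 6.16 to 6.51.

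Overlaps at gene ends carried peaks at different rates. Of 2023 overlapping pairs of protein-coding genes 626 held at least 1 shared peak, or 30.9% (interval 28.9 to 33.0). The share was 167 of 507 tail-to-tail pairs (32.9%, 28.9 to 37.2) and 62 of 446 head-to-head pairs (13.9%, 10.8 to 17.5). It was 102 of 217 nested pairs on opposite strands (47.0%, 40.2 to 53.9) and 71 of 140 on the same strand (50.7%, 42.1 to 59.3). The overlaps differ in length, with medians of 734 bases tail-to-tail, 478.5 head-to-head, 5874 in opposite-strand and 7416 in same-strand nested pairs. Per Mb of overlap the order changed, with 141 summits tail-to-tail, 72.9 head-to-head, 67.2 in opposite-strand and 50.8 in same-strand nested pairs. A peak in 3 or more genes counts for each of its pairs, up to the 1 peak in 9 genes at the Ugt1a locus. Same-strand nested pairs thus counted 163 summits, against 112 peaks in the same-strand nested class. On opposite strands the values were 169 and 156. The intervals treat pairs as independent, which pairs of the same locus are not. How far the same-strand nested values depend on the Ugt1a locus was not tested.

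In tail-to-tail pairs the summit lay a median of 575 bases from the nearer 3′ end and 13660 bases from the nearer 5′ end. In head-to-head pairs it lay 181 bases from the nearer 5′ end and 9713 bases from the nearer 3′ end. These ends bound the shared stretch, so short distances to them follow from the arrangement. In nested pairs of known strand, where the inner gene is free to hold a peak anywhere, 113 of 268 summits (42.2%) lay in the last 25% of the inner gene and 57 (21.3%) in its first 25%. Peaks of 1 gene had 46.6% in the last and 21.0% in the first 25% of their own gene. Split by strand, inner genes had 45.5% in the last and 16.7% in the first 25% on opposite strands, and 37.5% and 27.7% on the same strand. The median inner gene spanned 9717 bases and its outer gene 70094 bases.

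**Figure D3:**
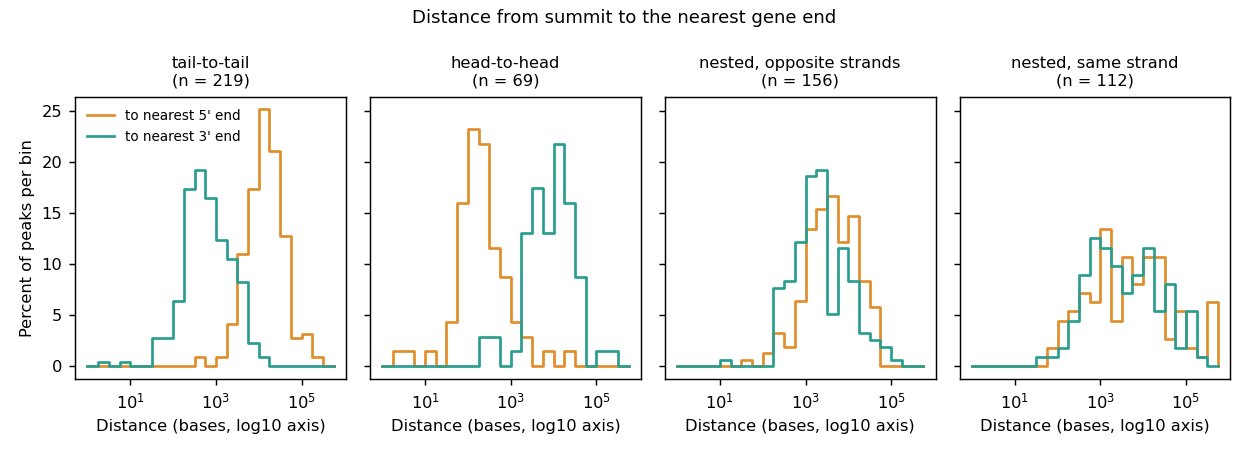
Share of shared peaks by distance from the summit to the nearest 5′ end (orange) and nearest 3′ end (green) among the genes that hold it, in bases on a log10 axis, for 4 arrangements. The curves change places between tail-to-tail (median 575 bases to a 3′ end) and head-to-head pairs (median 181 bases to a 5′ end), and overlap in nested pairs.

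Other peaks of the same genes show which partner is also marked where it stands alone. Of 575 sets of 2 genes, both genes carried a further peak outside any overlap in 125 sets, 1 gene did in 322, and neither did in 128 (22.3%). Both did in 52 of 165 tail-to-tail and 29 of 60 head-to-head sets. How much of each gene lies outside the overlap was not taken into account in these counts. An inner gene has no sequence of its own, so in nested sets only the outer gene can score. It carried no peak alone in 29 of 92 opposite-strand and 21 of 52 same-strand nested sets. The number of shared peaks per set was 1 in 409 sets, 2 in 106 and 3 in 50, and at most 11.

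The most enriched shared peak lay where Uros and Bccip meet head to head on chromosome 7. Uros encodes uroporphyrinogen III synthase of heme synthesis (NCBI Gene 22276, 133686142 to 133710467), and Bccip a BRCA2-binding protein (NCBI Gene 66165, 133709333 to 133721145). The peak at 133709232 to 133709519 was 42.95-fold enriched (exact Poisson 95% interval 34.8 to 52.4), with 95 IP fragments against 1.24 of background. Its summit lay 68 bases inside Bccip and 1066 bases from the 5′ end of the Uros span. Peaks of these genes outside the overlap reached only 7.78-fold in Uros and 10.2-fold in Bccip. All intervals on single folds count only the sampling error of IP fragments and take the background as exact.

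The other leading head-to-head peaks lay in Mylk4 / Wrnip1, Ppwd1 / Cenpk and Cln3 / Apobr. Mylk4 encodes a myosin light chain kinase and Wrnip1 a partner of the Werner helicase. Their peak on chromosome 13 (32801722 to 32802993) reached 28.2-fold (21.7 to 36.0) from 62 fragments over 1.24, and a second shared peak reached 8.45-fold. Ppwd1, a spliceosome-associated prolyl isomerase, and the kinetochore gene Cenpk share only 234 bases, and the peak there (chromosome 13, 104228498 to 104228912) reached 22.4-fold (16.8 to 29.5). Cln3, a lysosomal membrane protein gene, and the apolipoprotein B receptor gene Apobr shared a peak of 20.9-fold (15.0 to 28.5) on chromosome 7. Its interval of 2412 bases is longer than the 900 bases the genes share. With Uros / Bccip included, the backgrounds at these 4 leading summits were 0.865 to 1.27, so their folds rest on little input.

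Tail-to-tail, the highest peak lay in Cep250, a centrosome linker gene, and the uncharacterised 6430550D23Rik. They overlap over 9356 bases of chromosome 2 and shared 3 peaks of 27.7-fold (22.8 to 33.4), 11.0-fold and 6.95-fold. Cep250 alone held 10 more peaks of up to 13.0-fold, and 6430550D23Rik alone held 1 of 7.10-fold. Ldah, a lipid droplet hydrolase gene, and Gdf7, a BMP-family ligand gene, shared 1 peak of 20.7-fold (16.0 to 26.4) on chromosome 12, its summit 77 bases from the 3′ end of Gdf7. Gask1a, a Golgi kinase family gene, and Pomgnt2, a glycosyltransferase gene for dystroglycan, shared 1 of 16.4-fold (12.4 to 21.5). Lrrc39, which encodes a leucine-rich repeat protein, and the tRNA methyltransferase gene Trmt13 shared 4 peaks of 12.96-fold, 12.7-fold, 5.82-fold and 4.61-fold. The 2 higher ones lay toward the 3′ end of Lrrc39 and the 2 lower ones toward the 3′ end of Trmt13, and the intervals of the highest (10.1 to 16.4) and the lowest (2.71 to 7.42) did not overlap.

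Genes inside opposite-strand hosts gave several of the strongest values. The genes below were named for their high fold, against a class median of 6.16-fold. Imprinted genes are among them, but imprinted genes were not compared as a group. Zrsr1, a paternally expressed splicing factor gene, lies inside Commd1, which acts in copper handling. Their peak on chromosome 11 (22972067 to 22974734) reached 27.5-fold (23.1 to 32.5) from 135 fragments over 3.95, while Commd1 alone had 3 peaks of up to 7.01-fold. Nap1l5, also imprinted and of the nucleosome assembly family, lies inside the ubiquitin ligase gene Herc3. The peak they share on chromosome 6 reached 23.8-fold (17.1 to 32.3). It was the only peak in the 88944 bases of Herc3. Ecm2, an extracellular matrix gene inside the kinetochore gene Cenpp, held 1 of 21.5-fold (17.5 to 26.1). Cenpn, another kinetochore gene, lies inside Cmc2 of mitochondrial copper handling and held peaks of 16.1-fold (10.8 to 23.1) and 4.88-fold.

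Several of the leading same-strand nests pair a gene with one whose synonym joins 2 gene names, as read-through transcripts are named, so there a shared peak need not mean 2 separate loci. Gm20498, whose synonyms in the RefSeq table include Synj2bp-cox16, covers Cox16, a cytochrome c oxidase assembly gene, and this pair held the most shared peaks of any set. Its 11 peaks on chromosome 12 ran from 3.43-fold to 7.23-fold. Cox16 lies wholly inside Gm20498, so it could hold no peak alone. Gm20498 held none alone either, but its overlaps with Cox16 and Synj2bp take 126286 and 40718 of its 174060 bases and leave little room. Iqschfp, with the synonym Iqcj-schip1, covers Schip1 and shared 8 peaks with it, from 3.95-fold to 11.1-fold (6.74 to 17.4). Gm21992, with the synonym Rbm14-rbm4, covers the RNA-binding protein genes Rbm14, Rbm4 and Rbm4b and shared 2 peaks with each, with Rbm4b on the opposite strand. The Rbm14 peaks were 13.5-fold (10.1 to 17.7) and 4.79-fold, and those in Rbm4 and Rbm4b 5.97-fold to 6.85-fold. Gm20604, with the synonym AK010878-Moap1, covers Gon7 of a tRNA-modifying complex, with 3 peaks of up to 15.5-fold (11.6 to 20.2). Prn, with the synonym Prnp-Prnd, covers the prion-like gene Prnd, with 3 peaks of 17.3-fold (11.6 to 24.9), 5.47-fold and 3.13-fold, the lower ones from 7 and 6 fragments. Rpl32l, annotated as a ribosomal protein gene inside the microtubule-binding gene Map7, held 1 peak of 20.4-fold (14.1 to 28.5), but ribosomal protein genes have many near-identical copies that can share reads, so this value is uncertain.

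Partial same-strand overlaps were led by Pet117, a cytochrome c oxidase assembly gene, and the acetyltransferase complex gene Kat14. Their peak on chromosome 2 reached 18.6-fold (15.1 to 22.6), with its summit 122 bases from the 3′ end of Pet117. The transcription repressor gene Hic2 and Tmem191c shared 1 of 17.5-fold (13.1 to 23.1). LOC114841036 and Fkbp2, a prolyl isomerase of the endoplasmic reticulum, overlapped almost fully and shared 3 peaks of 16.4-fold (12.7 to 20.8), 6.43-fold and 4.17-fold. The nucleoporin gene Nup62 and Il4i1b, with the synonym Nup62-il4i1, shared 2 of 10.7-fold (8.82 to 12.9) and 8.94-fold. Together with the transcription factor gene Atf5 on the opposite strand they held another at 9.43-fold, 40 bases after the start of Il4i1b.

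Where strand was not in the table, the partial overlaps were led by Soga1 / Tldc2 at 29.4-fold (22.6 to 37.6) and Ptgfrn / Gm52612 at 26.7-fold (19.1 to 36.4). Ptgfrn, a membrane protein gene named as a negative regulator of the prostaglandin F2 receptor, alone held 6 peaks of up to 8.91-fold, and its shared peak stood at the genome-wide background. Prps1l3 / Mipol1 followed at 21.95-fold (18.3 to 26.1) and Shfl / Angptl6, an antiviral gene beside an angiopoietin-like gene, at 20.7-fold (17.0 to 24.9). Among nested pairs the adhesion gene Flrt1 inside Macrod1 reached 25.3-fold (18.3 to 34.3) from 40 fragments over 0.618, and 2 further shared peaks there reached 6.80-fold and 4.95-fold. Rnf113a2 inside Bbof1 reached 18.7-fold (15.0 to 23.0). The zinc finger gene Zfp397 inside Zscan30 held 5 peaks from 2.81-fold to 19.2-fold (14.3 to 25.2). Lrrn3, a leucine-rich repeat gene inside the mitochondrial peptidase gene Immp2l, held 5 from 2.37-fold to 6.91-fold.

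**Figure D4:**
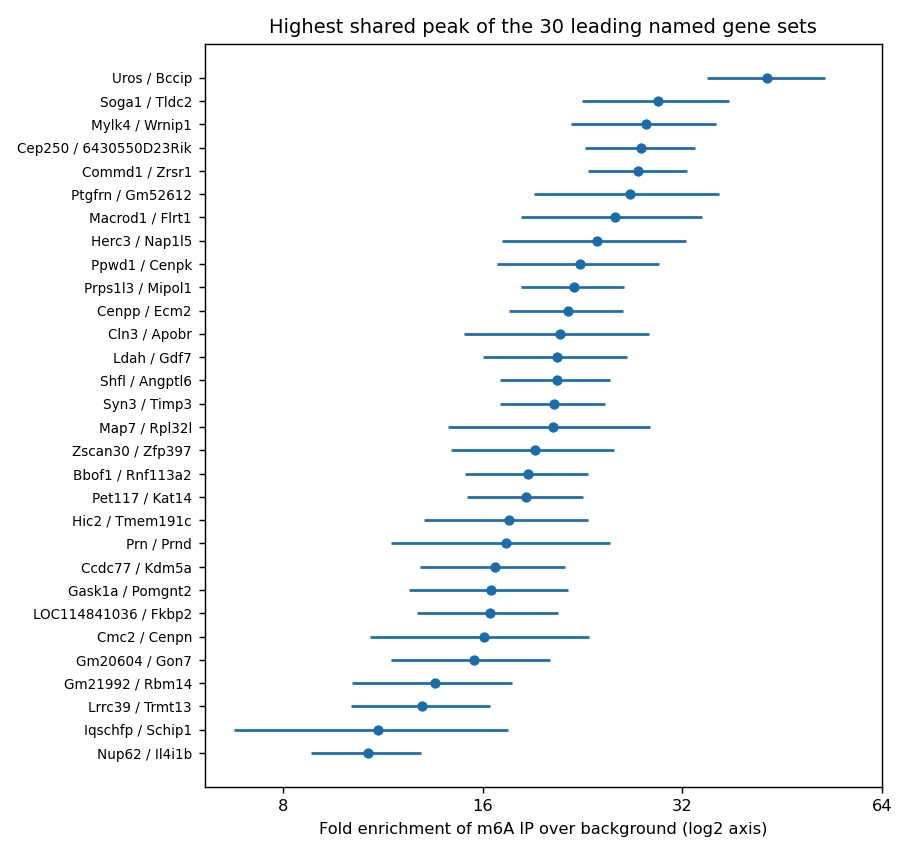
Fold enrichment of the highest shared peak (points) with its exact Poisson 95% interval (lines), on a log2 axis, for the 30 named gene sets with the highest values. Uros / Bccip at 42.95-fold is the highest, and its interval of 34.8 to 52.4 overlaps the 22.6 to 37.6 of Soga1 / Tldc2 at 29.4-fold, while below the leading sets the intervals of neighbours overlap throughout.

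Summits in 3 or more genes came mainly from the Ugt1a locus and from Nf1. The Ugt1a genes, which encode UDP-glucuronosyltransferases for bilirubin, steroids and drugs, have separate first exons and shared later ones, so their spans end close together on chromosome 1. The locus held 5 shared peaks, in 4 to 9 genes each. Those in 4 and 5 genes reached 5.76-fold and 7.82-fold. The 1 in 6 genes, up to Ugt1a6a, reached 6.83-fold (5.07 to 9.01), and the 1 in 7 genes, 151 bases inside Ugt1a5, reached 6.34-fold (4.03 to 9.54). The peak in 9 genes lay inside Dnajb3, a chaperone gene on the opposite strand, and reached 3.01-fold (1.77 to 4.84) from 15 fragments. Nf1, the neurofibromin gene, holds Evi2a and Evi2b, with the longer Evi2 across both. Evi2b and Evi2 run opposite to Nf1, and the strand of Evi2a was not in the table. The peaks over Evi2b reached 9.11-fold (6.65 to 12.2) and 5.64-fold, and the peak over Evi2a 8.26-fold (6.05 to 11.0). Nf1 alone held 1 peak of 7.49-fold in 242020 bases. Ncaph2, Sco2 and Tymp, for condensin, a copper chaperone and thymidine phosphorylase, shared 1 of 7.85-fold (6.08 to 9.97).

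The 3 pairs with equal spans cannot be separated by position at all. Chtf8, for a replication clamp loader, and Derpc shared 4 peaks from 3.18-fold to 6.99-fold (4.54 to 10.3), C1qtnf5 and Mfrp, a frizzled-related membrane protein gene, 1 of 6.33-fold (4.67 to 8.40). Rpp14, for an RNase P subunit, and Htd2, for mitochondrial fatty acid synthesis, shared 2 of 6.22-fold (4.76 to 7.99) and 3.57-fold.

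Genes with roles in the uterus were among the members, 5 of them in nested pairs. Of 124 autosomal genes of a list on steroid response, implantation, vessels, matrix and muscle, 17 overlapped another protein-coding gene and 9 held a shared peak (7.26%). Over all autosomal protein-coding genes 3574 of 20554 overlapped another and 1132 held a shared peak (5.51%). By that count the list stood near the general level. Among overlapping genes alone the share was 52.9% in the list, on only 17 genes, and 31.7% over all. Timp3, a matrix metalloprotease inhibitor of the decidua, lies inside Syn3, a synapsin gene of neurons. The strongest peak they share (chromosome 10, 86300481 to 86300841) reached 20.5-fold (17.0 to 24.5) and lay 247 bases after the Timp3 start. The 2 further shared peaks near the other end of Timp3 reached 2.58-fold (2.14 to 3.08) and 1.95-fold (1.57 to 2.40), over backgrounds of 46.3 and 45.1 against 4.82 at the strongest. No other peak lay in the 450181 bases of Syn3.

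Angpt2, which encodes a vessel-remodelling angiopoietin, lies inside Mcph1, a gene of chromosome condensation, and held 9 shared peaks. They ran from 2.97-fold to 6.38-fold over 8 of the peaks, and the ninth, 194 bases from one end of Angpt2, reached 9.46-fold (8.22 to 10.8) from 207 IP fragments. Mcph1 alone held 3 peaks of up to 5.76-fold. Angptl7, an angiopoietin-like gene inside the growth kinase gene Mtor, held 3 shared peaks of 10.7-fold (8.52 to 13.3), 5.47-fold and 3.10-fold, and Mtor alone held 1 of 8.45-fold.

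**Figure D5:**
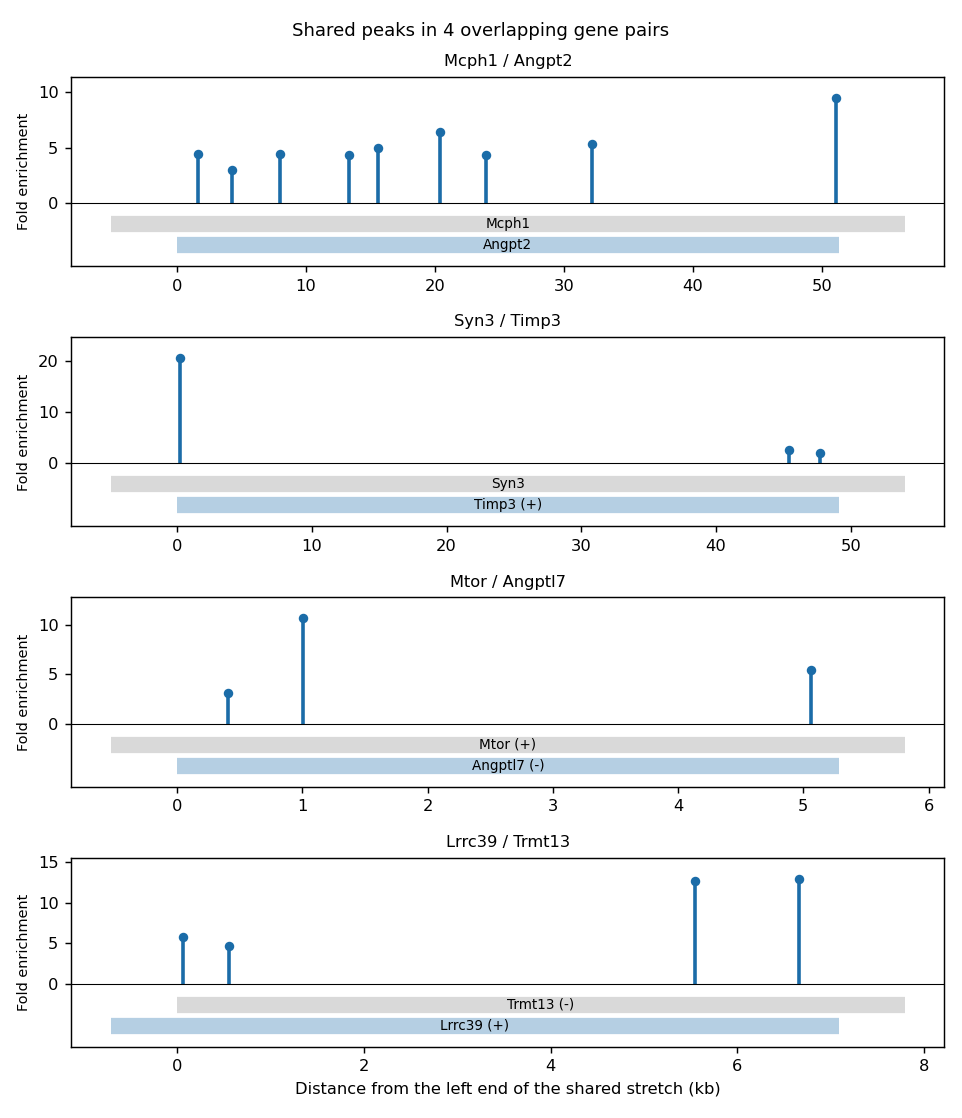
Fold enrichment of each shared peak by distance in kb from the left end of the stretch that both genes hold, for 4 pairs; bars below mark the gene spans, cut off at the edge of each panel where they run on, with strand where known. Peaks are spread over Angpt2, lie toward the ends of Timp3 (20.5-fold near its start), fall 1006 bases from the 3′ end of Angptl7 at their highest, and cluster at both ends of the Lrrc39 and Trmt13 overlap.

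The other uterine members were less enriched. Timp2, the related inhibitor gene, shared 2 peaks of 8.25-fold (6.13 to 10.9) and 6.76-fold with Cep295nl inside it. The retinoic acid receptor gene Rara shared 1 of 7.11-fold (3.94 to 12.0) with Gm46294, from 12 fragments, in the start window printed above. Ncor1, a nuclear receptor corepressor gene, met Ttc19 tail to tail with peaks of 6.33-fold (5.10 to 7.77) and 4.20-fold, while Ncor1 alone reached 15.6-fold. The smooth muscle gene Tagln shared peaks of 3.97-fold (3.13 to 4.96) and 3.02-fold with the protease gene Pcsk7, over high backgrounds of 18.2 and 45.1.

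Pairs long known to overlap were present in part. Looked up by symbol, 14 of 18 such pairs overlapped in this annotation and 6 held a shared peak. Ercc1 / Polr1g could not be scored, because only 1 of its symbols was found. Ercc1 did overlap Cd3eap tail to tail over 518 bases, with a shared peak of 8.92-fold. Whether this is the same pair under another symbol was not checked. The thyroid receptor gene Thra and the clock gene Nr1d1 shared 1 peak of 4.49-fold (3.15 to 6.22), 222 bases from an end of Nr1d1. The growth factor gene Fgf2 and its antisense neighbour Nudt6 shared 1 of 6.76-fold (5.18 to 8.67). Pkd1 and Tsc2, genes of polycystic kidney disease and tuberous sclerosis, shared 1 of 3.23-fold (2.46 to 4.15) over a background of 17.3. The other 3 were Syn3 with Timp3 and Nf1 with Evi2a and Evi2b. Among the rest, no shared peak was listed in the overlaps of Syn2 / Timp4, Mest / Copg2, Nf1 / Omg, Snrpn / Snurf, Surf2 / Surf4, Atg12 / Ap3s1 or Ugt1a1 / Ugt1a2. These overlaps ran from 31 bases in Atg12 / Ap3s1 and 147 in Surf2 / Surf4 to 22705 in Snrpn / Snurf. Over all overlapping pairs with a shared peak the median overlap was 3471.5 bases, so the shortest ones left little room for a summit.

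Counted over all listed autosomal genes, genes of the m6A machinery and of chromatin held shared peaks at about the general rate. Among overlapping genes alone the share was 25% for machinery, on 4 genes, 50% for chromatin, on 8, and 31.7% over all. Of 22 autosomal machinery genes 4 overlapped another gene and 1 held a shared peak (4.55%). The m6A reader gene Igf2bp3 shared 3 with Malsu1, of 6.66-fold (4.09 to 10.3), 5.37-fold and 4.91-fold, from 11 to 18 fragments each. Neither gene held a peak alone, so Igf2bp3 counts as a gene with a peak only through this overlap. Of 74 autosomal chromatin genes 8 overlapped another and 4 held a shared peak (5.41%). The histone demethylase gene Kdm5a shared 1 of 16.7-fold (12.9 to 21.2) with Ccdc77, 161 bases from its span's edge. Nsd2, a histone methyltransferase gene, shared 1 of 10.6-fold (7.18 to 15.2) with Gm52782. The demethylase genes Kdm2a and Kdm1a shared 1 of 6.01-fold with 9430078G10Rik and 1 of 3.36-fold with Luzp1.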

How the data were processed

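Values were read from 1 deposited narrowPeak list of the m6A library against the input. HISAT2 2.2.1, MACS3 3.0.0a7 and mm10 are named in the submitters' processing notes, with settings of peak calling not given in the sources used here. Fold enrichment as deposited by the authors is a ratio of IP pileup to local background, and −log10 of the p-value and q-value were also deposited, from the authors’ peak caller. The display score that the authors deposited was not used. The lowest −log10 q was 1.32. Positions were counted from 1. IP fragments and background were recovered from the deposited fold and p-value, to within 0.001 of −log10 p at 100% of peaks. Because 1 is added to both terms of the fold, it understates enrichment at thin peaks.

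Gene spans came from RefSeq GRCm38.p6. Of 49997 rows 365 outside the assembled chromosomes were left out, and 21783 protein-coding genes were used. Strand came from a RefSeq promoter table. No exon positions were used, so a summit in an intron counts. The members and gene lists were chosen with earlier results of these data known. Gene sets were named by a fixed rule: the 10 of highest fold at −log10 q of at least 5, the 5 with most peaks (4 sets tied at 5 peaks, ordered by highest fold), the 3 with most genes, the 4 leading per arrangement, the 8 leading uterine sets, the known overlaps, the machinery sets and the 5 leading chromatin sets. Rbm4, Rbm4b and the Ugt1a peaks in 4 and 5 genes fall outside it and were chosen once their values had been seen. A known overlap is not reported here. With 1 library per group no test was run. The alternatives kept peaks with −log10 q from 5 up, kept folds from 4 up, or used interval overlap of 1 base or 50%, merged intervals, genes other than predicted or read-through ones (told by symbols with Gm, Rik or LOC, so Prn, Evi2, Il4i1b and Iqschfp stayed in), −log10 q in place of the fold, 1 value per set and a distance of 250 bases. The recovery was tested on simulated data. Scripts ran in Python 3.11.15 with scipy 1.17.1 for intervals, numpy 2.4.6, pandas 2.3.3 for tables and matplotlib 3.10.9 for figures.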

Additional observations from a re-analysis of the deposited data

How the results depend on the processing

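The peak count and the set count stayed within 1.5 times under all 6 alternatives run on each, at 693 to 1082 peaks and 489 to 768 sets. The median fold of shared peaks was 6.10 with −log10 q of at least 5, 6.38 with a fold of at least 4 and 5.97 when the interval shared 1 base with both spans, and it was below the median in exactly 1 gene, 6.39, 6.70 and 6.12, each time. With −log10 q as score the medians were 13.3 in shared peaks and 14.3 in 1 gene, and with the highest fold per set or per gene 6.44 and 8.06. The last 2 values are not like for like, because a maximum rises with the number of peaks it is taken over. The 586 sets held 875 shared peaks, and 11116 genes held 31085 peaks alone. The share at 10-fold was 15.6% with a fold of at least 4, against 17.7% in 1 gene. With 1 shared base it was 14.7%, against 14.8% in 1 gene, so that difference all but ended. The share near a gene end was 66.7% with 1 shared base and 24.7% with 250 bases in place of 1000. The tail-to-tail share of peaks with known arrangement was 37.4%, 32.7% with a fold of at least 4 and 43.9% without predicted and read-through genes, which make up 94 sets and 154 peaks by their symbols. Where the cause of a shift is not the alternative's own construction, it was not tested. No paired analysis was possible because each group held 1 library. The error of the background is not part of the fold intervals, and with 1 library per group no value has a replicate error.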
